A study of Mus musculus with 24 samples.

Results

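The 10 genes described here code for proteins that carry molecules across the wall of brain capillaries or take part in vesicle traffic through it. They were *Slc2a1*, *Slc7a5*, *Slc1a1*, *Slco1a4*, *Slco1c1*, *Mfsd2a*, *Abcb1a*, *Abcg2*, *Cav1* and *Plvap*, found by symbol among the 32288 genes of the count tables. Single nuclei came from 12 mice of the strain B6.Pdgfbtm3Cbet, in which the retention motif of the growth factor PDGF-B is removed. The 6 mutants carried the ret allele on both chromosomes (*Pdgfb* ret/ret) and were female. The 6 controls carried 1 ret allele and 1 wild-type allele (*Pdgfb* ret/wt), so the allele was present in every animal, and control 6 was the male among 5 females. The first 3 mice of either genotype had an age of 5 months plus 0 to 18 days, while replicates 4 to 6 had reached 4 months plus 7 to 24 days. Each mouse gave 1 library from the deep brain, which calcifies in mutants, and 1 from the cortex, which does not, so that each of the 4 groups held 6 libraries.

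Endothelial cells of brain capillaries are sealed by tight junctions and take up few vesicles, so most nutrients cross them through carriers and many drugs are pumped back into the blood. Pericytes, which PDGF-B recruits to the vessel wall, are known to limit vesicle traffic through the endothelium, and the ret allele lowers pericyte coverage. MFSD2A is a lysolipid carrier known to hold caveolar transcytosis down, CAV1 is the coat protein of caveolae, and PLVAP forms the diaphragms of fenestrae and caveolae and is largely absent from mature barrier vessels. GLUT1 (*Slc2a1*) carries glucose, LAT1 (*Slc7a5*) large neutral amino acids and EAAT3 (*Slc1a1*) glutamate and cysteine. OATP1A4 (*Slco1a4*) takes up organic anions and OATP1C1 (*Slco1c1*) thyroxine, while P-glycoprotein (*Abcb1a*) and BCRP (*Abcg2*) are ATP-driven exporters.

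The libraries held 64736053 to 96459036 unique molecular identifiers (UMIs) in the deep brain and 23625232 to 95605387 in the cortex. Clustering without the 10 genes gave 667 endothelial nuclei in the deep brain (323 mutant, 344 control, median 1914 UMIs per nucleus) and 147 in the cortex (72 mutant, 75 control, median 2643). All 12 endothelial markers, *Cldn5*, *Flt1*, *Pecam1* and *Cdh5* among them, had UMIs in every group. In the deep brain they summed to 13549 to 17673 CPM in controls (median 14994) and 13316 to 17893 in mutants (17522). In the cortex they summed to 13549 to 20209 (13883) and 17157 to 22799 (21234). At least 5 endothelial nuclei were present in all 12 deep brain libraries, but only in mutants 1, 5 and 6 and controls 1, 3, 4, 5 and 6 of the cortex. Only these libraries entered endothelial levels per library and their tests. Counts and shares of nuclei, sums by vessel markers and correlations used all 12 cortical libraries. In the cortex 40169 nuclei (50.2%, median 843 UMIs) stayed without a class. Pairs of libraries shared 60 to 246 barcodes, at most 2.37% of the smaller library. The endothelial share of nuclei was 0.562 ± 0.120% in controls and 0.504 ± 0.201% in mutants of the deep brain (SD, n = 6 each, two-sided exact permutation p = 0.565). It was 0.22 ± 0.11% and 0.15 ± 0.12% in the cortex (n = 6 each, exact permutation p = 0.344). Endothelial sums also carried UMIs of other cells. In the deep brain the 8 neuron markers summed to 778 to 1584 CPM in controls (median 1151) and 720 to 1178 in mutants (902), the 6 markers of oligodendrocyte precursors to 40.0 to 261 (125) and 75.8 to 172 (95.6), with none of either list at 0, and the 7 choroid plexus markers to 14.9 to 3774 (199.7) and 24.8 to 249 (91.6), with 1 and 2 at 0. The 12 mural (pericyte and smooth muscle) markers together came to 3188 to 5548 CPM (UMIs of a gene in every 1000000 UMIs that a library's nuclei of the class held together) in controls and 1601 to 3188 in mutants of the deep brain, and to 2519 to 8445 and 1471 to 1852 in the cortex, where 5 of the 12 were at 0 in mutants. The sum of 8 arterial markers was 307 to 1457 CPM in deep brain controls and 714 to 1704 in mutants, with none at 0, and the sum of 7 venous markers 523 to 1450 and 1101 to 2110, again with none at 0. In the cortex the arterial sum was 74.3 to 864 CPM in controls and 619 to 1397 in mutants, and the venous sum 71.98 to 1145 and 1985 to 3025. The mural sum of the cortex and the venous sum of the cortex did not overlap between genotypes, the mural sums of the deep brain met at 3188 CPM, and the other sums overlapped. Their part in the gene differences below was not tested. Results are also given without nuclei holding a mural UMI, and without nuclei holding UMIs of other classes. The latter held at least 3 UMIs of neuron, oligodendrocyte, astrocyte, microglia or mural markers.

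By GENCODE M21 (GRCm38) the genes lie on 5 chromosomes and all are protein-coding. Chromosome 4 holds *Slc2a1* (119108711 to 119137983, plus strand) and *Mfsd2a* (122946850 to 122961188, minus strand). Chromosome 6 holds *Cav1* (17306335 to 17341452, plus), *Abcg2* (58584523 to 58695676, plus), *Slco1c1* (141524368 to 141570177, plus) and *Slco1a4* (141805440 to 141856199, minus). *Abcb1a* lies on chromosome 5 (8660077 to 8748575, plus), *Slc1a1* on chromosome 19 (28835049 to 28913960, plus), and *Plvap* (71497765 to 71511752, minus) and *Slc7a5* (121881150 to 121907694, minus) on chromosome 8. Opposite-strand genes of the count tables overlap 4 of them, namely *4430402I18Rik* with 20919 bases of *Slc1a1*, *Gtpbp3* with 1819 of *Plvap*, *Gm15581* with 35118 of *Cav1*, and *Gm12867* and *Gm12868* with 710 and 4235 of *Slc2a1*. The kit marks strand and the counter uses it.

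The 3 promoters below are shown because *Slco1a4* and *Slco1c1*, which lie near each other, are read in the same endothelial nuclei, and because *Slc1a1* is the gene that differed between genotypes there. They are the 250 bases before the RefSeq start (GRCm38.p6), 5′ to 3′ on the gene's strand. Of the 10 genes, 8 had promoters in the RefSeq promoter set used here, 11 in all, and *Slc7a5* and *Plvap* were missing from that set. Capitals in the first and second mark the longest run of bases the pair shares on the same strand. Capitals in the third mark a GC box, GGGCGG on either strand.
*Slco1a4* (chr6:141856221-141856470, minus): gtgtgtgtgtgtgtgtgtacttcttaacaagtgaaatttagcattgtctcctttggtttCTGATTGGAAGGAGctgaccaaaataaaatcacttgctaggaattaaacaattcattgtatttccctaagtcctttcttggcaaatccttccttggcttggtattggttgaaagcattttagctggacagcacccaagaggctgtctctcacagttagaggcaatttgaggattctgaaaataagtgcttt
*Slco1c1* (chr6:141524104-141524353, plus): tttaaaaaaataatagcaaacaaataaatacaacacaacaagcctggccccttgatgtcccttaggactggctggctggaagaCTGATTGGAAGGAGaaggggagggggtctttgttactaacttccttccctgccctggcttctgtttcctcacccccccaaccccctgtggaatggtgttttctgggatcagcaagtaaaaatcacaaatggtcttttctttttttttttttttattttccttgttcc
*Slc1a1* (chr19:28834885-28835134, plus): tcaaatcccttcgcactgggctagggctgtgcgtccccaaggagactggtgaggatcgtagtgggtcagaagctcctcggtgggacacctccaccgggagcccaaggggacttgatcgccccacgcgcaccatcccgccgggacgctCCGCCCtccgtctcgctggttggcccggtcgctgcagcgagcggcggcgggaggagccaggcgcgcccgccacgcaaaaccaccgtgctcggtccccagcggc

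The shared run of 14 bases begins 191 bases before the start of *Slco1a4* and 167 before that of *Slco1c1*. On either strand it occurred in 2 of 32851 promoters of the same length, those of these genes, and the run was picked for being shared. The GC content was 39.2% in the *Slco1a4* promoter, 42.8% in that of *Slco1c1* and 70.4% in that of *Slc1a1*. The GC box was in 5 of the 11 promoters and in 32.7% of all promoters. The ETS motif CCGGAA, searched on both strands because ETS factors act in endothelium, was in 0 of the 11 and in 12.0% of all. It is longer than the GGAA core of ETS sites. That core was not searched for, and it lies within the shared run.

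Levels by cell class are given in CPM, as mean ± SD over libraries. They are compared between classes and not between genes, since CPM does not correct for gene length. Among the 17 combinations of class and region with at least 50 nuclei, endothelium stood first for 8 of the 10 genes in both regions. *Slco1a4* was at 4223 ± 514 CPM in deep brain endothelium (n = 12) and next at 327 ± 102 in choroid plexus epithelium (n = 10), and the ranges did not overlap. *Slco1c1* was at 1428 ± 219 in deep brain endothelium, 578 ± 130 in choroid plexus epithelium and 364 ± 149 in astrocytes. In the cortex its endothelial range of 681 to 1799 CPM (1282 ± 358, n = 8) overlapped the astrocyte range of 501 to 1396 (901 ± 266, n = 12). Both classes come from the same libraries, and within them endothelium was above astrocytes in all but control 1 (681 against 1208 CPM). The difference was not tested.

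The exporters shared a second class. *Abcb1a* was at 1390 ± 225 CPM in deep brain endothelium and 229 ± 54.8 in fibroblasts (n = 12 each), and *Abcg2* was at 1057 ± 171 and 307 ± 41.6. Of the nutrient carriers, *Slc2a1* was at 1862 ± 439 in endothelium, 263 ± 89.3 in ependymal cells and 103 ± 13.6 in astrocytes, and *Slc7a5* was at 764 ± 204 in endothelium and 27.9 ± 5.5 in astrocytes. In the cortex the 4 genes had means of 1309, 1036, 2024 and 823 CPM in endothelium, in that order.

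*Mfsd2a* and *Cav1*, which act on the same vesicle route, had oligodendrocyte precursors as their second class. *Mfsd2a* was at 181 ± 69.5 CPM in deep brain endothelium and 87.0 ± 17.3 in precursors, with overlapping ranges (85.1 to 293 and 65.6 to 119), and at 162 ± 131 and 126 ± 54.1 in the cortex. *Cav1* was at 321 ± 90.0 and 72.2 ± 15.5 in the deep brain, and its ranges did not overlap.

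*Slc1a1* and *Plvap* were the exceptions when mutants and controls were pooled. In the pooled libraries *Slc1a1* was highest in oligodendrocyte precursors (308 ± 27.3 CPM in the deep brain, 305 ± 43.7 in the cortex), then in endothelium (237 ± 124 and 239 ± 181), whose ranges overlapped those of precursors, and then in neurons (122 ± 10.3 and 142 ± 13.4). In deep brain controls alone, its endothelial mean was slightly above that of precursors, by the values given below for each genotype. *Plvap* was highest in neurons, at 18.8 ± 2.4 CPM in the deep brain and 10.5 ± 1.5 in the cortex, and endothelial nuclei of both regions together held 7 and 2 of its UMIs, or 4.0 and 1.7 CPM.

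**Figure D1:**
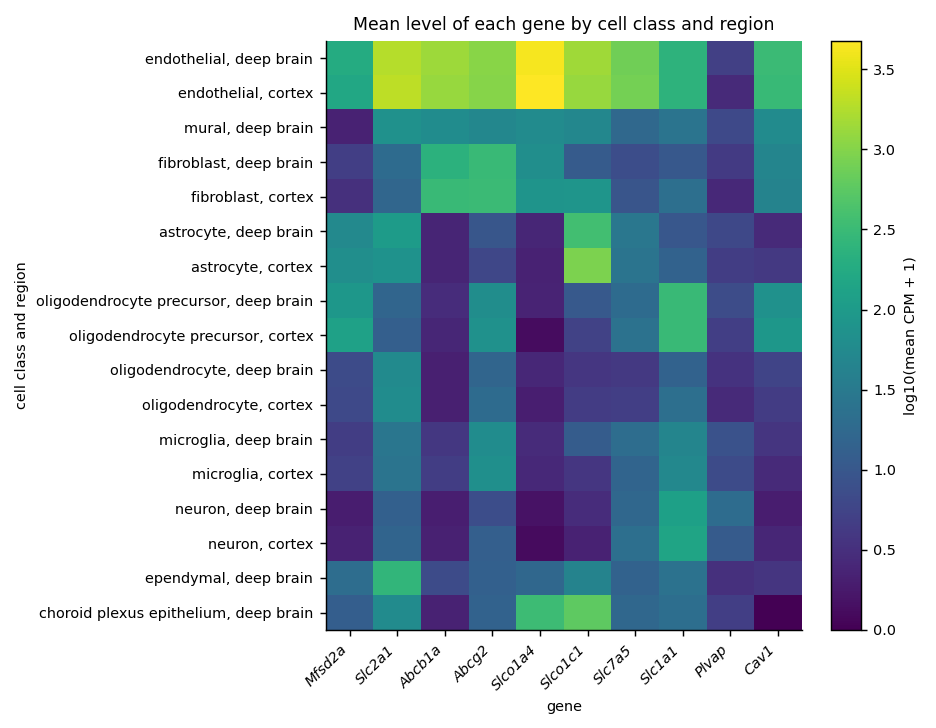
Mean level of each gene (columns) in each cell class and region with at least 50 nuclei (rows), coloured by log10 of mean CPM + 1 over the libraries with at least 5 nuclei of the class. Mutants and controls are pooled. The 2 endothelial rows are the brightest for 8 genes, *Slc1a1* is brightest in oligodendrocyte precursors and *Plvap* in neurons.

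Endothelial nuclei were 0.534% of deep brain nuclei and held 74.2% of all *Slco1a4* UMIs and 46.7% of those of *Abcb1a*. They held 14.3% of *Abcg2*, 14.2% of *Slc2a1*, 13.5% of *Cav1*, 11.8% of *Slco1c1*, 8.40% of *Slc7a5*, 5.07% of *Mfsd2a* and 0.396% of *Slc1a1* UMIs. Most *Slco1c1* UMIs of the deep brain lay in astrocytes (61.2%), most *Slc1a1*, *Slc7a5* and *Plvap* UMIs in neurons (84.0%, 72.5% and 91.6%), and oligodendrocyte precursors held 45.3% of *Cav1*. Neurons were 54.5% of deep brain nuclei and held most UMIs of all genes together in every deep brain library. By mean CPM they stood first for *Plvap*, but not for *Slc1a1* (122, against 308 in oligodendrocyte precursors) or *Slc7a5* (16.2, against 764 in endothelium).

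A *Slco1a4* UMI was found in 83.8% of deep brain endothelial nuclei (exact Clopper-Pearson 95% interval 80.8 to 86.5, counting error only), against 0.389% of neurons, which had a median of 9631 UMIs. *Abcb1a* was found in 74.2% (70.7 to 77.5) against 1.04%, *Slc2a1* in 75.6% against 11.5% and *Abcg2* in 69.3% against 5.66%. With every nucleus thinned to 1000 UMIs, which kept 565 of the 667 endothelial nuclei, the 4 endothelial shares were 85.7%, 66.7%, 69.2% and 57.2%, and those of neurons 0.0614%, 0.126%, 1.31% and 0.690%. *Mfsd2a* was found in 24.7% (21.5 to 28.2) against 0.982% of neurons, *Cav1* in 37.2% against 0.852%, and *Slc1a1* in 31.6%, below the 58.2% of neurons, which read this gene too, and against 3.47% of oligodendrocytes. These shares are not corrected for depth, and endothelial nuclei had a median of 1914 UMIs. By mean CPM *Slc1a1* was higher in endothelium than in neurons (237 and 122), with overlapping ranges (96.8 to 456 and 109 to 140). *Plvap* was found in 0.750% of endothelial nuclei (0.244 to 1.74) against 0.708% of oligodendrocytes at a median of 2671 UMIs, so its endothelial share is read as background. Of 7 other genes used as markers of fenestrated vessels, *Kcne3*, *Esm1*, *Npr3* and *Cd24a* had 0, 8, 9 and 12 UMIs in deep brain endothelial nuclei, whereas *Plpp1*, *Nrp2* and *Esam* had 143, 559 and 932. Their sum was 707 to 824 CPM in controls and 881 to 1462 in mutants of the deep brain, and 360 to 1003 and 1065 to 1707 in the cortex, without overlap in either region. Most UMIs of this sum were of *Esam* and *Nrp2* (932 and 559 in the deep brain, 366 and 280 in the cortex), so it says little about the 4 low genes. It is therefore not read as a sign of fenestrated vessels. How often sums of other genes lie apart between genotypes was not counted. The part of the 7 genes in the results was not tested. An endothelial nucleus held UMIs of 6 of the 10 genes at the median in both regions, and 625 of 667 deep brain and 143 of 147 cortical nuclei held at least 1.

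Endothelial nuclei of the deep brain were compared between 6 mutants and 6 controls to ask whether barrier transport differs where vessels calcify. *Slc1a1* fell in mutants, the other carriers and both exporters had overlapping groups, and *Cav1* and *Mfsd2a* had lower means that did not pass the test. Of the 9 genes that passed the filter on low counts, 1 was called, and of all 3599 genes tested 57 were called (1.58%), 40 up and 17 down. The median log2 fold change was -0.15 over the 9 genes and -0.01 over all genes tested. *Plvap* did not pass the filter.

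*Slc1a1*, the glutamate and cysteine carrier, was at 144, 333 and 456 CPM in controls (lowest, median, highest) and at 96.8, 134 and 203 in mutants. Of the 6 controls 5 lay above every mutant, and control 3, at 144 CPM, lay within the mutant range. The means were 328 ± 108 and 145 ± 45.8 CPM (SD, n = 6 each), from 270 and 140 UMIs, and the log2 fold change was -1.15 ± 0.25 (SE, edgeR's quasi-likelihood test, Benjamini-Hochberg adjusted p = 0.0159). The adjusted p of the same edgeR test was 0.0530 without mutant 2, 0.0583 without mutant 4 and 0.0503 without control 2, with log2 fold changes of -1.10, -1.02 and -1.03. Leaving out nuclei with a UMI of the mural genes *Pdgfrb*, *Vtn* or *Rgs5*, a setting chosen after the data were seen, gave -1.15 (edgeR adjusted p = 0.0545). With nuclei that held UMIs of other classes left out, 495 of the 667, *Slc1a1* did not pass the filter on low counts and no gene was called.

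*Slc2a1* was at 1181, 1834 and 2157 CPM in controls and at 1186, 1961 and 2656 in mutants, and the groups overlapped over most of their range. Its log2 fold change was 0.16 ± 0.19 (edgeR adjusted p = 0.851). *Slc7a5* was at 490, 796 and 1227 CPM in controls and 517, 739 and 867 in mutants, with a log2 fold change of -0.18 ± 0.20 (edgeR adjusted p = 0.834). *Slco1a4* was at 3406, 4168 and 5282 CPM in controls and 3839, 4260 and 4687 in mutants. All mutants lay inside the control range, and the log2 fold change was -0.004 ± 0.15 (edgeR adjusted p = 0.999). *Slco1c1* was at 1039, 1562 and 1841 CPM in controls and 1206, 1385 and 1490 in mutants, again inside the control range, with a log2 fold change of -0.15 ± 0.16 (edgeR adjusted p = 0.834).

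The exporters had overlapping groups as well. *Abcb1a* was at 1033, 1364 and 1881 CPM in controls and 1292, 1406 and 1599 in mutants, a log2 fold change of 0.07 ± 0.16 (edgeR adjusted p = 0.933). *Abcg2* was at 824, 964 and 1374 CPM in controls and 877, 1081 and 1292 in mutants, with 0.10 ± 0.16 (edgeR adjusted p = 0.894).

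Of the genes of the vesicle route, *Cav1* was at 275, 382 and 507 CPM in controls and 174, 260 and 341 in mutants. The groups overlapped in the middle, with mutants 1, 2 and 5 below every control and controls 1, 2, 3 and 4 above every mutant. Its log2 fold change was -0.52 ± 0.19 with an unadjusted edgeR p of 0.0115 and an adjusted p of 0.218. *Mfsd2a* was at 85.1, 225 and 293 CPM in controls and 95.7, 131 and 244 in mutants, from 168 and 151 UMIs. All mutants lay inside the control range, and the log2 fold change was -0.42 ± 0.26 (edgeR adjusted p = 0.604). *Plvap* had 2 UMIs in controls, all in control 5, and 5 in mutants, of which 3 were in 1 nucleus of mutant 1, and was not tested.

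**Figure D2:**
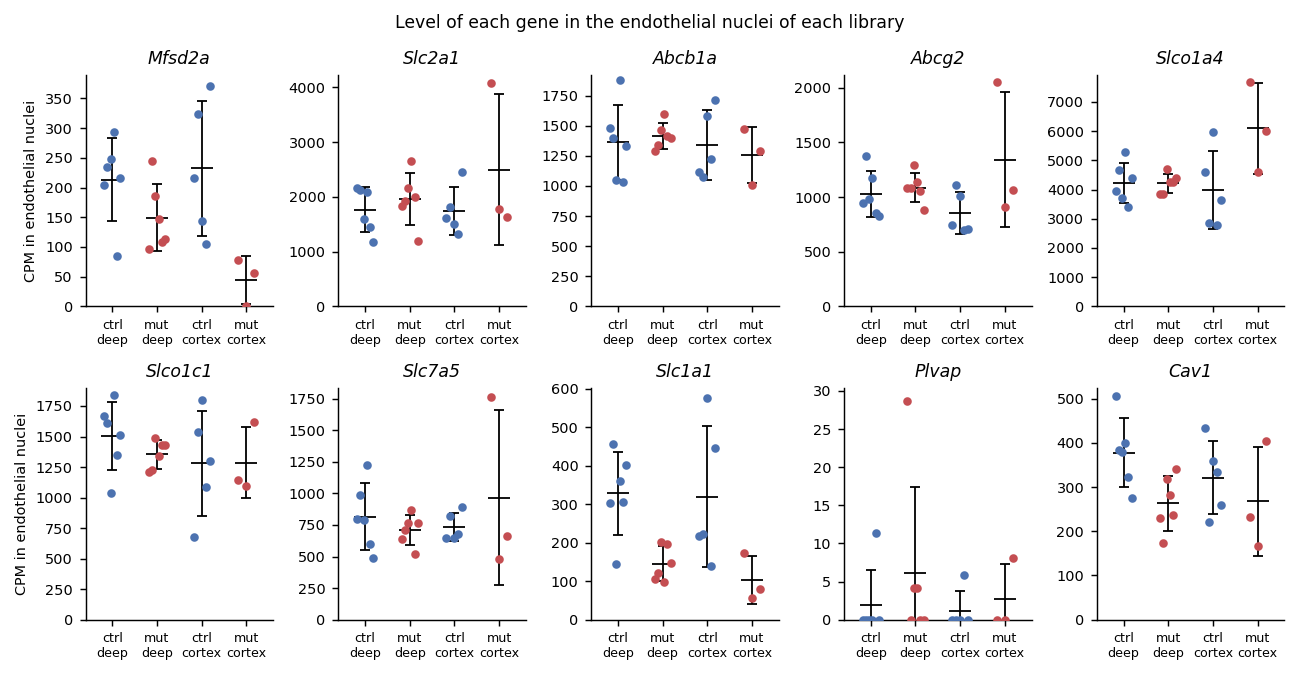
CPM of each gene in the endothelial nuclei of each library with at least 5 of them (points, blue for controls and red for mutants), with mean and SD in black, by genotype and region (6, 6, 5 and 3 libraries). *Slc1a1* in the deep brain has 5 of 6 controls above all mutants. *Slco1a4*, *Abcb1a*, *Slco1c1*, *Abcg2*, *Slc7a5* and *Mfsd2a* in the deep brain have all mutants within the control range.

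A list of 46 other genes of barrier transport, put together with earlier results of these data known, held 33 that were tested in deep brain endothelium. None rose and 2 fell, *Tfrc* and *Slc39a10*, where 1.58% of all genes tested were called. Their median log2 fold change was -0.21. Among 15 carriers tested 1 fell (median -0.22), among 8 receptors of transcytosis 1 fell (median -0.46), and among 3 pumps (median 0.33) and 7 caveola genes (median -0.20) none was called. *Tfrc*, the transferrin receptor that brings iron into the brain, was at 363, 612 and 974 CPM in controls and 219, 278 and 418 in mutants, and 1 control lay within the mutant range. Its log2 fold change was -1.09 ± 0.21 (edgeR adjusted p = 0.0089). *Slc39a10*, a zinc importer, was at 817, 1029 and 1534 CPM in controls and 619, 680 and 712 in mutants, with no overlap. Its log2 fold change was -0.66 ± 0.16 (edgeR adjusted p = 0.0392), but the adjusted p rose above the threshold without control 4 (-0.53, edgeR adjusted p = 0.0954) and in 14 more of the 23 alternatives.

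In cortical endothelium, where 3 mutants and 5 controls could be compared, none of the 9 genes tested was called, against 16 of 1355 genes tested (1.18%), 14 up and 2 down. Their median log2 fold change was 0.02, and over all genes tested it was -0.02. The values furthest from 0 were those of *Mfsd2a* and *Slc1a1*. Both passed the filter on low counts through control libraries alone, which favours negative values, so their place here is not independent of the filter. *Mfsd2a* was at 217, 324, 144, 105 and 371 CPM in controls 1, 3, 4, 5 and 6 and at 77.4, 0 and 56.6 in mutants 1, 5 and 6, so that every mutant lay below every control. These levels rest on 56 UMIs in controls, 2 of them in control 4, and 11 in mutants. Control 5, with the most nuclei (42), was the lowest control. The log2 fold change was -2.38 ± 0.69 (edgeR adjusted p = 0.108, DESeq2 adjusted p = 0.0440). Its adjusted p lay between 0.0440 and 0.729 over the 12 alternatives. Beside these values, cortical endothelial nuclei with neither arterial nor venous markers were 29.3% in controls and 4.17% in mutants, and those with both were 26.7% and 61.1%. These shares pool the nuclei of all cortical libraries, 75 in controls, of which 42 were from control 5, and 72 in mutants. The part of these shares in the differences was not tested. *Slc1a1* was at 217, 221, 576, 141 and 446 CPM in controls 1, 3, 4, 5 and 6 and at 174, 55.5 and 80.9 in mutants 1, 5 and 6. Only control 5 was within the mutant range, and the log2 fold change was -1.50 ± 0.52 (edgeR adjusted p = 0.199), from 64 and 24 UMIs. Among the other 7 genes the log2 fold changes ran from -0.23 for *Cav1* to 0.62 for *Slco1a4*, with edgeR adjusted p of 0.454 or more. *Tfrc* had -1.22 ± 0.51 and *Slc39a10* -1.004 ± 0.37 (edgeR adjusted p = 0.302 and 0.244). Of the list of 46 genes 21 were tested, and none was called.

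**Figure D3:**
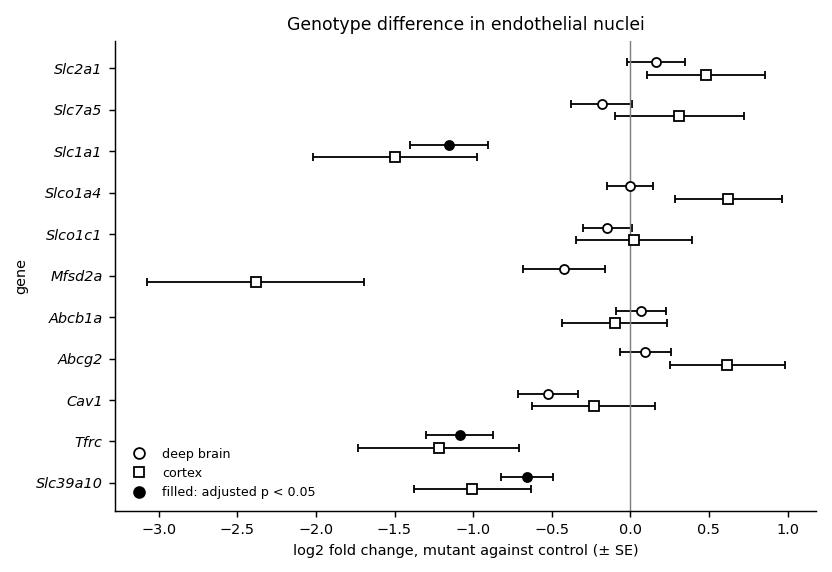
Log2 fold change of mutants against controls in endothelial nuclei of the deep brain (circles) and the cortex (squares), with SE as bars, for the 9 genes tested and for *Tfrc* and *Slc39a10*. Filled symbols passed the adjusted threshold, which *Slc1a1* (-1.15), *Tfrc* (-1.09) and *Slc39a10* (-0.66) did in the deep brain, and the bars of the cortex are wider.

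The difference between the regions was tested as an interaction in mice with endothelial nuclei from both, with the mouse as a block. None of 4093 genes was called (0%), 152 had an unadjusted edgeR p below 0.05, and DESeq2 called 0. For *Mfsd2a* the log2 fold change was less negative in the deep brain than in the cortex by 1.60 ± 0.72 (quasi-likelihood test across all genes, edgeR adjusted p = 1), and for *Slc1a1* by 0.46 ± 0.60 (edgeR adjusted p = 1). In controls 1, 3, 4, 5 and 6 the same test between regions called none of 3688 genes (0%), with 112 at an unadjusted edgeR p below 0.05 and 0 by DESeq2. The 9 genes differed by -0.19 for *Mfsd2a* to 0.31 for *Slco1c1* (log2, deep brain against cortex), with SE of 0.25 to 0.35.

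Endothelial nuclei differ along the vessel tree, so levels were also summed by whether a nucleus held a UMI of the arterial or the venous markers. In the deep brain, nuclei with neither were 34.0% of control and 13.9% of mutant endothelial nuclei, and those with both were 19.2% and 39.3%. Mutant nuclei were also deeper (median 2109 UMIs against 1783), and the part of depth in these shares was not tested. In nuclei with venous markers only, *Slco1a4* was at 5582 CPM, *Slc7a5* at 946 and *Abcb1a* at 1668, and in those with arterial markers only at 3143, 454 and 1044. *Slc1a1*, *Cav1* and *Mfsd2a* had lower values in mutants in all 4 kinds, and no other gene of the 9 did. *Cav1* was at 319, 454, 386 and 289 CPM in controls and 237, 255, 296 and 83.8 in mutants (arterial only, venous only, both, neither), and *Mfsd2a* at 169, 234, 202 and 195 and at 107, 130, 186 and 151. *Slc1a1* was at 300 CPM (exact Poisson 95% interval 219 to 400) in controls and 130 (75.6 to 208) in mutants with arterial markers only, and at 372 (295 to 462) and 205 (150 to 274) with venous markers only. With both it was at 282 (224 to 350) and 116 (89.2 to 149), and with neither at 366 (281 to 469) and 252 (141 to 415), where the intervals overlapped. These intervals cover counting error only and pool the libraries of a genotype, so no test is given.

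**Figure D4:**
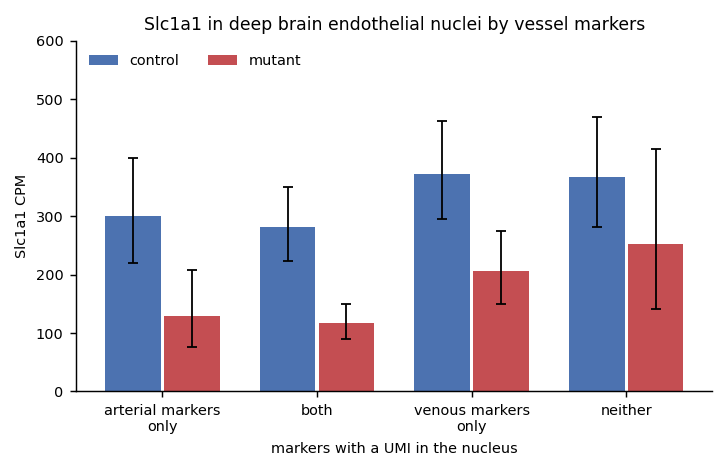
*Slc1a1* CPM in endothelial nuclei of the deep brain, pooled over the 6 libraries of a genotype, by whether a nucleus held a UMI of arterial markers, venous markers, both or neither; bars are CPM and error bars exact Poisson 95% intervals. The mutant bar is lower in each of the 4 kinds, from 116 against 282 CPM with both to 252 against 366 with neither.

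Sums over all nuclei mix how many cells of a type were captured with how much RNA each held, which cannot be told apart there. In the deep brain no member was called, against 324 of 21040 genes (1.54%), and in the cortex none, against 50 of 18171 (0.275%, or 473 with the replicate number as a block, also without a member). *Slc1a1*, read mainly from neurons, was at 105, 117 and 132 CPM in deep brain controls and 95.2, 102 and 108 in mutants (log2 fold change -0.24 ± 0.08, edgeR adjusted p = 0.136). In neurons of the deep brain it was at 120 to 140 CPM in controls and 109 to 119 in mutants, without overlap (-0.20 ± 0.07, edgeR adjusted p = 0.251). With edgeR no member was called in neurons of the deep brain, against 61 of 19915 genes (0.306%), or of the cortex, against 1 of 16702 (0.00599%, or 4 with the block). With DESeq2 *Abcg2* was called in deep brain neurons, at 6.95 ± 0.74 CPM in controls and 5.71 ± 0.45 in mutants (log2 fold change -0.28, DESeq2 adjusted p = 0.0374, edgeR -0.29 ± 0.08 and adjusted p = 0.143). *Slc1a1* means in oligodendrocyte precursors were 323 ± 15.4 CPM in controls and 292 ± 29.0 in mutants of the deep brain, with overlapping ranges and no test. Whether the endothelial change differed from that of the other classes was not tested.

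*Slco1c1*, the thyroxine carrier, was the member with the largest difference in astrocytes. In the deep brain it was at 253, 448 and 606 CPM in controls and 140, 293 and 401 in mutants, and the log2 fold change was -0.77 ± 0.23. The edgeR adjusted p was 0.0681, and no member was called against 660 of 12773 genes (5.17%). The value passed the threshold in 5 of 17 alternatives, with edgeR adjusted p of 0.0399 without mutant 2, 0.0264 without control 3, 0.0222 without the filter on low counts, 0.0199 with mice paired by age and 0.0178 with the replicate number as a block. In cortical astrocytes it was at 711, 970 and 1396 CPM in controls and 501, 745 and 1215 in mutants (-0.37 ± 0.18, edgeR adjusted p = 0.424), where 134 of 6719 genes were called (1.99%), none of them a member. Of the list of 46 transport genes, 2 of 35 tested rose and none fell in astrocytes of the deep brain, and 1 of 19 rose and none fell in those of the cortex. *Slc38a3*, a glutamine carrier of the list, rose in astrocytes of the deep brain (0.57 ± 0.08, edgeR adjusted p = 0.000918) and of the cortex (0.69 ± 0.12, edgeR adjusted p = 0.0034). It also rose in all nuclei of the deep brain (0.59 ± 0.11, edgeR adjusted p = 0.0192). It and *Bsg*, the partner of lactate carriers (0.71 ± 0.09 in the deep brain, edgeR adjusted p = 0.00052), were named after their values were seen.

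The astrocytes of the deep brain fell into a larger cluster of 7751 nuclei led by *Slc6a11*, a GABA carrier, and a smaller one of 2591 nuclei led by *Slco1c1* itself. These clusters were compared after the astrocyte values had been seen, with 6 exact tests in all, 3 of the level and 3 of the share of astrocytes. In the larger cluster *Slco1c1* was at 170, 250 and 280 CPM in controls (lowest, median, highest) and 70.1, 87.8 and 230 in mutants. Mutant 6 alone reached the control range, and the other mutants lay at or below 101 CPM. The means were 237 ± 40.2 and 109 ± 60.8 CPM (n = 6 each, two-sided exact permutation p = 0.00649, 0.0390 adjusted over the 6 tests). With 1 mouse left out the adjusted exact p was 0.0130 to 0.0649, and it stayed below 0.05 for 3 of the 12 mice left out (mutant 6, control 1 and control 3) and rose above it for the other 9. In the smaller cluster they were 890 ± 293 and 777 ± 209 CPM (exact permutation p = 0.455, adjusted 0.545), and in the cortical cluster led by *Slco1c1*, of 1123 nuclei, 1178 ± 282 and 906 ± 273 (exact permutation p = 0.128, adjusted 0.221). The larger cluster made up 69.2 ± 13.6% of control and 79.0 ± 5.09% of mutant astrocytes of the deep brain (exact permutation p = 0.147, adjusted 0.221). The smaller cluster made up 30.5 ± 14.1% and 19.5 ± 6.23% (exact permutation p = 0.121, adjusted 0.221). Without control 3 the adjusted exact p of both shares was 0.0476, and with any other mouse left out it stayed above 0.05. The part of these shares in the level over all astrocytes was not tested.

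**Figure D5:**
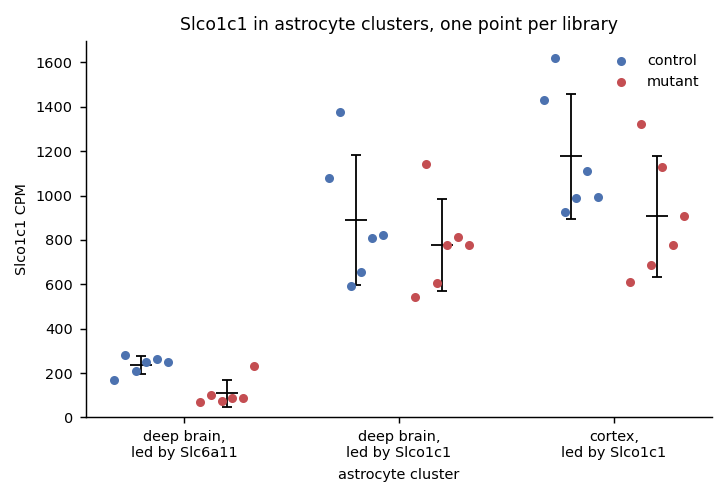
*Slco1c1* CPM per library in the 2 astrocyte clusters of the deep brain and the largest of the cortex (points, blue for controls and red for mutants), with mean and SD in black over 6 libraries each. In the cluster led by *Slc6a11* 5 of 6 mutants lie at 70.1 to 101 CPM, below all controls, and mutant 6 lies at 230.

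Over the 17 class and region levels, the log2(CPM + 1) of *Abcb1a* correlated with that of *Abcg2* (Pearson r = 0.88) and of *Slco1a4* (0.85), and least with *Plvap* (-0.31) and *Slc1a1* (0.11). *Plvap* had its highest r with *Slc1a1* (0.38). The 3 genes most like each member, among 13127 with at least 20 CPM in some level, were *Klf2*, *Cdh5* and *Abcc6* for *Abcb1a* (0.98 to 0.99), *Cenpb*, *Lsr* and *Cdc42bpb* for *Slco1a4* (0.96 to 0.97) and *Ptprr*, *Nexmif* and *Cdh13* for *Slc1a1* (0.94 to 0.96). They were *Lima1*, *Cav2* and *Ccser2* for *Cav1*, *Vps36*, *Klhl5* and *Jam2* for *Mfsd2a*, *Nxpe2*, *Pik3c2a* and *Polk* for *Slc2a1*, and *Ptprm*, *Slc30a1* and *Gm41168* for *Slc7a5*. For *Slco1c1* they were *Acacb*, *Ccdc141* and *Cd38*, for *Abcg2* *Ube2l6*, *Nampt* and *Jun*, and for *Plvap* the receptors *Oprm1* and *Htr7* with *A530058N18Rik*. These r are descriptions over levels that share libraries and depth.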

How the data were processed

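Nuclei from frozen tissue were counted with the Chromium Single Cell 5′ kit. The authors made the deposited UMI counts with Cell Ranger 5.0.1 (bcl2fastq 2.20.0.422), introns included, on mm10, and did not normalize them. The filter of the study's methods was applied, so that a nucleus had over 500 and under 7000 genes and a mitochondrial share under 20%. Each nucleus was scaled to 1000 UMIs, and clusters were made on 20 components of 2000 variable log values without the members, with scanpy 1.11.5 in Python 3.11.15 (scipy 1.17.1, numpy 2.4.6) and Seurat 5.3.0 (20 neighbours, resolution 0.01). Mixed clusters were divided at 0.1, the cortical vascular cluster at 0.3, chosen after the clusters were seen. A class needed at least 3 markers, and 50% of its list, over 2-fold raised, with 10 CPM added. Undivided clusters were set against the median cluster. Parts of divided clusters, endothelium among them, were set against the other nuclei of the same cluster. Where no list reached 50% there, the median of all clusters was used. The divided cluster also had to meet the list as a whole. Clusters that met a second list, or were led by mitochondrial genes or another list, could stay without a class. Doublets were not called; alternatives left out nuclei with UMIs of other classes.

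The members, marker lists, transport list and tests were chosen with earlier results of these data known. Counts were summed per library and class and tested with edgeR 4.0.16 in R 4.3.3 (filterByExpr, TMM, quasi-likelihood test, Benjamini-Hochberg over all genes tested, threshold 0.05). The SE is the log2 fold change divided by the square root of F. Of these fits only the genotype fit of deep brain endothelium was tried on simulated counts with known changes. The simulation does not cover the smaller cortical groups or the fits with a block. DESeq2 1.42.0 and the other alternatives stand in the closing section. Each mouse is 1 replicate.

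Text names all members, the listed genes called in an endothelial genotype comparison, and the 3 genes most correlated with each member. *Slc38a3* and *Bsg* fall outside this rule. Samples with the same replicate number deviated together in all pairs of all cortical nuclei (r = 0.21 to 0.76), cortical neurons (0.11 to 0.69) and cortical endothelium (0.11 to 0.32). The main genotype fits nevertheless had genotype as their only term, so their log2 fold changes and p are unpaired there too. The replicate number entered as a block in an alternative fit, and the blocked count is printed where it moved.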

Additional observations from a re-analysis of the deposited data

Results flagged for a closer look

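Of 50 groups of 4 to 10 libraries examined, 5 held a library that stood far from the others by Dixon's criterion, which chance alone passes in about 1 in 20 groups. *Plvap* in endothelial nuclei of the deep brain was at 28.7 CPM in mutant 1, where the other mutants were at 0 to 4.21, and at 11.4 CPM in control 5, where the other controls were at 0. In cortical endothelium it was at 5.86 CPM in control 5 and at 0 in the other controls. The value of mutant 1 rests on 3 UMIs of 1 nucleus. The values of control 5 rest on 2 UMIs and 1 UMI, and where all other libraries are at 0 any UMI passes the criterion, so the chance rate does not apply to these 2 values of control 5. *Slco1c1* in the astrocyte cluster led by *Slc6a11* was at 230 CPM in mutant 6 of the deep brain, and the other mutants were at 70.1 to 101. *Slc39a10* in endothelial nuclei of the deep brain was at 1534 CPM in control 4, and the other controls were at 817 to 1070.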

How the results depend on the processing

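In deep brain endothelium, 57 called genes became 167 without the filter on low counts, 0 without nuclei holding UMIs of other classes, 28 without nuclei holding a mural UMI (chosen after seeing the data), and 32 to 109 when 1 library was left out. In cortical endothelium, 16 became 31 with DESeq2, 89 without the filter, 8 with mice paired by age, 1 with the vascular cluster divided at a resolution of 0.1, 2 without nuclei holding UMIs of other classes, 116 with at least 20 endothelial nuclei per library (2 mutants against 1 control, assumed to vary like the mutants), and 5 to 17 with 1 library left out. The interaction had 2 calls without the filter, 4 with at least 20 nuclei (2 mutant mice against 1 control mouse, under the same assumption) and 0 to 2 with 1 library left out. The regional test in controls had 8 without the filter, 3 without nuclei holding a mural UMI, 3734 at the other resolution and 0 to 2 with 1 library left out. At that resolution *Mfsd2a* turned from -0.19 to 1.76 and all other members tested passed the threshold, but there the cortical class was a mixed cluster of 505 nuclei in place of 147, with a median of 8166 UMIs and 5 of 8 neuron markers raised, so these values do not compare endothelium between regions. The same cluster gave the 1 cortical call above.

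With DESeq2, calls were 960 and 270 in all nuclei of the deep brain and cortex, and 537 and 24 in neurons. With the replicate number as a block, all nuclei gave 522 and 473, cortical astrocytes 316, and neurons 229 and 4. With mice paired by age, all nuclei of the cortex gave 286, cortical astrocytes 241, and neurons 98 and 5. Without the filter, all nuclei of the cortex gave 77 and cortical astrocytes 317. With 1 library left out, calls ran from 92 to 450 and 11 to 110 in all nuclei, 356 to 1056 and 94 to 232 in astrocytes, and 8 to 194 and 1 to 4 in neurons. The replicate block added *Slco1c1* in astrocytes of the deep brain (edgeR adjusted p = 0.0178) and lost *Slc39a10* in endothelium (0.0844), and it changed the call of no member otherwise. Same-numbered samples did not all deviate together in deep brain endothelium (r = -0.16 to 0.14), all deep brain nuclei (-0.13 to 0.27), deep brain neurons (-0.20 to 0.30) or astrocytes (-0.03 to 0.22 and 0.01 to 0.36).

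*Slc1a1* in deep brain endothelium kept its direction in 22 of 22 alternatives that tested it, from -1.32 to -1.02, and passed the threshold in 18. *Tfrc* passed in 22 of 23. Over the named genes 1609 values stayed on their side of the threshold, of which 125 had the opposite sign to the value reported, none of them called. A further 20 lost the call, 18 gained it and 1 reversed. *Slco1a4* in deep brain endothelium, near 0, was positive in 9 of 23 alternatives. Endothelial nuclei are few, so genes with low counts could not be tested, above all in the cortex.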
